A study of Mus musculus with 2 samples.

Results

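The heat shock chaperones described here are 10 of the 32285 genes counted in the mouse libraries, taken as the rows of both count matrices whose symbol was Hspa1a, Hspa1b, Hspa8, Dnajb1, Dnaja1, Hsp90aa1, Hsp90ab1, Hsph1, Hspd1 or Hspe1. Each of the 10 symbols had 1 row in both matrices. Immune cells were taken from small intestinal lamina propria, the tissue beneath the absorptive epithelium, in a comparison of CD4-Cre; Aster-A F/F mice (written CD4-Cre) with Aster-A F/F mice (written F/F). Both groups carried floxed alleles of Aster-A, a cholesterol transport protein encoded by Gramd1a, and the CD4-Cre transgene deletes floxed segments in αβ T cells, so most cells in the libraries were not a target of the Cre. All mice were female littermates 10 to 12 weeks old, fasted for 16 h and given olive oil by gavage for 2 h, and 100000 live cells per mouse were sorted that carried CD45 but not the epithelial, red cell or endothelial markers EPCAM, Ter119 and CD31. The cells of 3 mice were pooled for each genotype, so each genotype was 1 sample and no difference between genotypes could be tested.

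Chaperones bind proteins that are not folded and keep them from clumping. HSP70 and HSP90 do this with ATP in the cytosol, HSP40 proteins deliver clients to HSP70, HSP110 exchanges the nucleotide of HSP70, and HSP60 with its lid HSP10 folds proteins inside mitochondria. Heat shock factor 1 switches on the inducible members within minutes of heat or protein damage through repeats of the element nGAAn in their promoters, and warm enzymatic digestion or sorting of a tissue can do the same, so these genes are often read as signs of cell handling in dissociated tissue.

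The upstream sequences below are shown because the 2 most inducible members share one and the HSP60 and HSP10 genes face each other across one. They come from RefSeq (GRCm38.p6), run 5′ to 3′ on the strand given, and the capitals mark the inverted element pairs GAANNTTC or TTCNNGAA. Hspa1a (ENSMUSG00000091971; chromosome 17, 34969190 to 34972156, minus strand) and Hspa1b (ENSMUSG00000090877; chromosome 17, 34956436 to 34959238, minus strand) have starts 12918 bp apart, and the 250 bases before them differ at 3 positions.
Hspa1a, chr17:34972157-34972406, minus strand: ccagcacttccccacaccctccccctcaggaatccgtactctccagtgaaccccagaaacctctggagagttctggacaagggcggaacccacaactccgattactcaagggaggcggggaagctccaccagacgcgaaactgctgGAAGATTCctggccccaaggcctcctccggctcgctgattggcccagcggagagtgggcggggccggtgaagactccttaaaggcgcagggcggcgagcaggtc
Hspa1b, chr17:34959239-34959488, minus strand: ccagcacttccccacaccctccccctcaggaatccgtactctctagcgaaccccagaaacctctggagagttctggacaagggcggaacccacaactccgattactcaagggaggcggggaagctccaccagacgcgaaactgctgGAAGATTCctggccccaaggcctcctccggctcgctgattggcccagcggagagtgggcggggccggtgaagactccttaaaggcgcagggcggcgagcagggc
Hspd1 (ENSMUSG00000025980, chromosome 1, minus strand) and Hspe1 (ENSMUSG00000073676, chromosome 1, plus strand) lie on opposite strands. The RefSeq start of Hspd1 at 55087932 and that of Hspe1 at 55088148 are 216 bp apart. From these the genes are read away from each other, and 30 bases between them hold 3 overlapping pairs. Another RefSeq start of Hspd1, at 55088243, lies past the Hspe1 start. From 250 bases before that start to 50 after it there is no pair.
Hspd1 and Hspe1, chr1:55088053-55088082, plus strand: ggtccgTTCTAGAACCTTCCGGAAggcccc

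In the RefSeq promoter table, which held 7 of the 10 members (not Hspa8, Hsp90aa1 or Hsp90ab1), at least 1 of the motifs GAANNTTC and TTCNNGAA lay within 250 bases before and 50 bases after a start in 6 of the 7 genes. Both motifs are their own reverse complement, so both strands were searched at once, and they can overlap. The share of all 27025 tabulated genes with one was 16.97%. Member windows numbered 12 and 58.3% of them held a motif, against 15.1% of all 32851 windows. The Hspa1a and Hspa1b pair GAAGATTC begins 104 bases before each start. A match describes the letters only.

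The CD4-Cre library held 200580083 UMIs (unique molecular identifiers, each counting 1 captured transcript end) and the F/F library 222838658. Barcodes kept as cells numbered 12526 in CD4-Cre, with a median of 14031 UMIs, and 12594 in F/F, with a median of 15320, and 47 barcodes were kept in both. Clustering without the chaperones gave 21 clusters, and 11 classes had at least 100 cells in each library. Where a level is called highest or lowest, this is among these 11 classes. Class names were rebuilt here from marker transcripts alone, hence the ending -like, and a cluster that met no marker rule keeps its number. Cluster 6 led with Zbtb16 and Il7r, cluster 7 with Xcl1, Klrd1 and Klrk1, cluster 8 with Gzma, Ccl5 and Trdc, and cluster 11 carried T cell and plasma cell markers together. ILC3-like cells also held the T cell transcripts Cd3e, in 32.9% of cells in CD4-Cre and 29.0% in F/F, and Trdc, in 35.0% and 28.0%. T cells may thus be among them. Cd4 was seen in 92.4% of CD4 T-like cells in CD4-Cre and 57.3% in F/F, while Cd3e was seen in 72.9% in CD4-Cre and 75.2% in F/F. Gramd1a, read from 3′ tags, checks nothing about the deletion. Levels are CPM, a gene's UMIs over all UMIs of its class in that library, scaled to the usual CPM unit. They are not divided by length, so they are compared between classes and libraries and not between genes, except as stated ratios of UMIs. Brackets hold 95% intervals for counting error only. Many UMIs can come from 1 cell, which widens the true error. Where intervals on one side of 1 are counted, the share over all genes was not computed, so such counts describe the members only.

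Free RNA from broken cells differed between the libraries. Digestive enzyme transcripts, which immune cells do not make, stood at 442 CPM in CD4-Cre and 1865 CPM in F/F in CD4 T-like cells, and at 249 CPM in CD4-Cre and 887 CPM in F/F in macrophage-like cells. Barcodes of 10 to 100 UMIs, taken as free RNA, held 848 CPM of Hsp90ab1 in CD4-Cre and 836 CPM in F/F. They held 570 CPM of Hspa8 in CD4-Cre and 551 CPM in F/F, so these abundant members are also in the free RNA. Levels in these barcodes were close between the libraries. Barcodes of 150 to 350 UMIs, between free RNA and cells, held more in CD4-Cre. Hsp90ab1 stood at 494 CPM in CD4-Cre and 381 CPM in F/F in them, and Hspa8 at 569 CPM in CD4-Cre and 491 CPM in F/F. The part of free RNA or of these barcodes in the results below was not tested. Values after subtracting free RNA are given where they turn a direction.

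Of 110 member by class values, 89 rested on at least 100 UMIs. A value was called when its ratio of CD4-Cre over F/F was at least 1.5 or at most 1/1.5. None of the 89 was called higher and 8 (8.99%) were called lower, while over all genes and classes with the same depth 2.02% were called higher and 2.22% lower. Ratios stood above 1 in 46 of the 89 values and below 1 in 43, with a range of 0.0732 to 1.42. The 8 called values were those of Hspa1a in 4 classes, Hspa1b in 2, Dnajb1 in 1 and Hsph1 in 1. Hspa8, Dnaja1, Hsp90aa1, Hsp90ab1, Hspd1 and Hspe1 stayed within 1.5-fold in all 11 classes. After subtracting free RNA at the share of digestive transcripts, 26 values instead of 8 passed 1.5-fold, counted in either direction. The same count over all genes was not made. The subtracted share sat at its 50% limit for F/F in several classes, so the 26 is rough. No member was called in cluster 7, cluster 8, CD8 T-like cells, cluster 11 or ILC3-like cells, where 1.58%, 2.06%, 2.56%, 2.15% and 3.92% of genes were called lower.

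**Figure D1:**
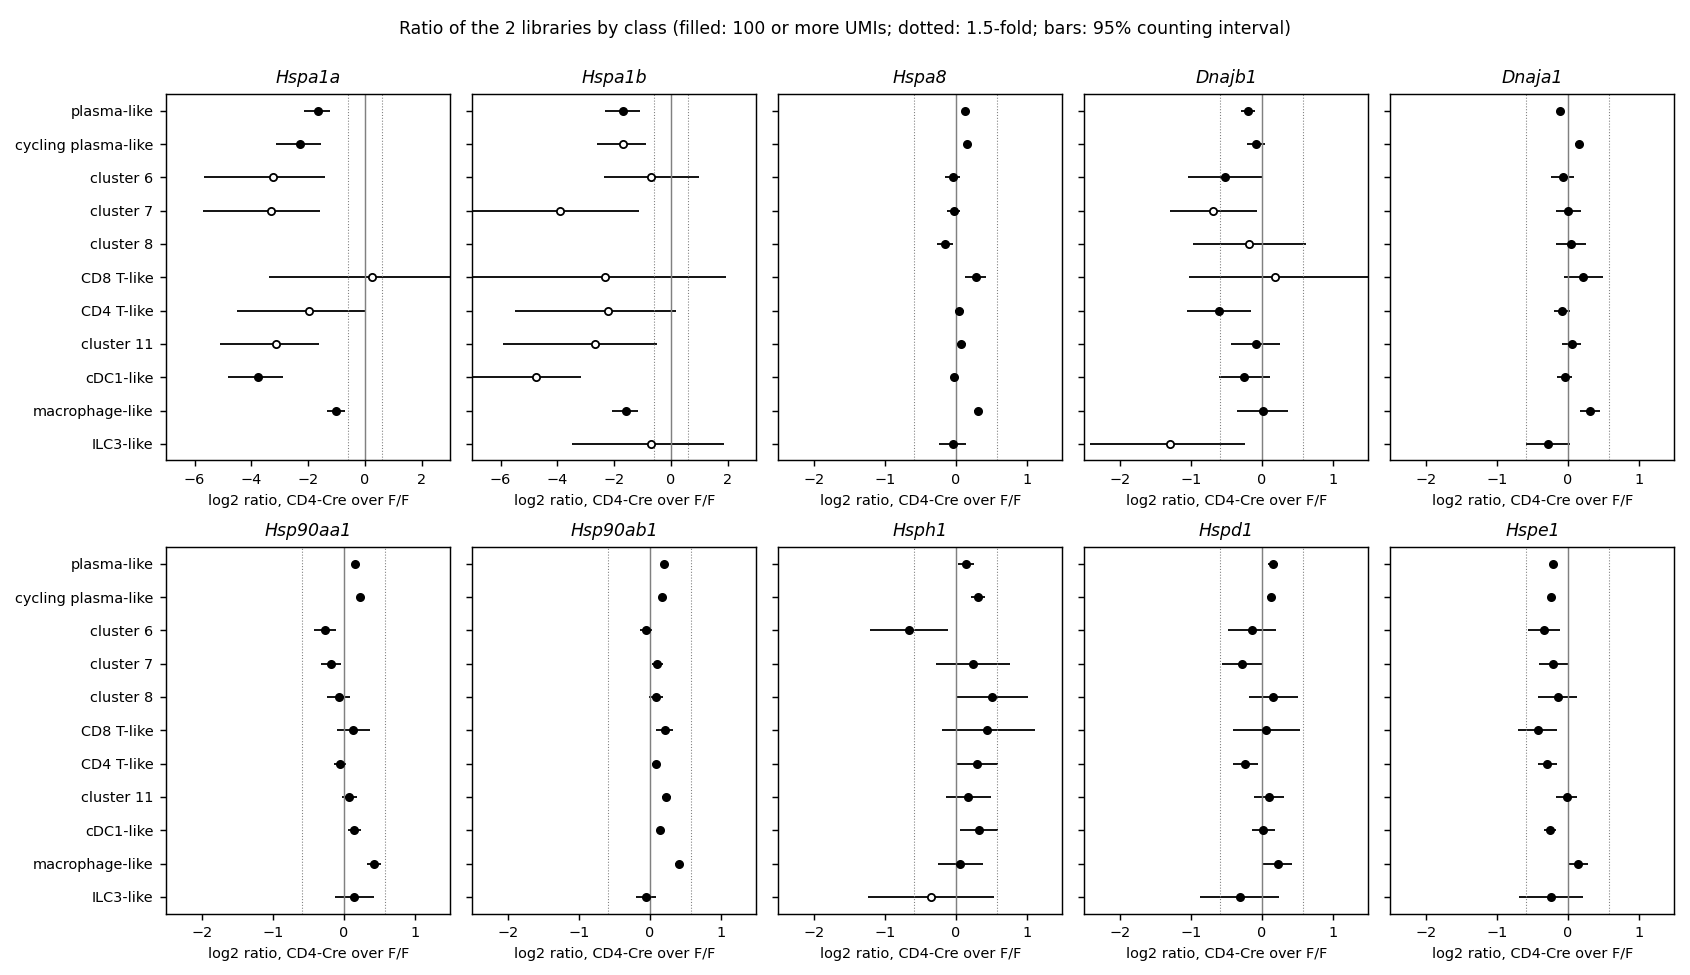
Log2 ratio of CD4-Cre over F/F (x axis) for each chaperone gene by class (y axis); points are ratios of CPM summed per class, filled at 100 or more UMIs, bars are 95% counting intervals, and dotted lines mark 1.5-fold. Hspa1a and Hspa1b lie left of 0 in most classes, with Hspa1a at a ratio of 0.0732 in cDC1-like cells, while Hsp90ab1 lies between ratios of 0.964 and 1.33; 1 library at 0 UMIs leaves no point, and some Hspa1a, Hspa1b and Dnajb1 bars run past the axis.

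Hspa1a and Hspa1b encode the stress-inducible HSP70 and were low in every class. Their highest levels were in macrophage-like cells, where Hspa1a stood at 27.0 CPM (22.3 to 32.3) in CD4-Cre and 54.8 CPM (49.1 to 60.9) in F/F, a ratio of 0.492 (0.396 to 0.609). Hspa1b stood at 11.9 CPM (8.88 to 15.6) in CD4-Cre and 36.1 CPM (31.5 to 41.2) in F/F in the same cells, a ratio of 0.329 (0.239 to 0.447). Both lay below F/F past the 1.5-fold line, as did 3.23% of genes of this class. Barcodes of 150 to 350 UMIs, between free RNA and cells, held 4.13 CPM of Hspa1a in CD4-Cre and 7.56 CPM in F/F, lower in CD4-Cre as well but far under the macrophage-like levels; their part in the difference was not tested.

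In cDC1-like cells, the dendritic cells that present antigen to CD8 T cells, Hspa1a stood at 1.41 CPM (0.705 to 2.53) in CD4-Cre and 19.3 CPM (15.9 to 23.2) in F/F, from 11 UMIs in CD4-Cre and 114 in F/F. The ratio of 0.0732 (0.0355 to 0.136) was the lowest called value of the set, in a class where 1.84% of genes were called lower. Its CD4-Cre level is close to the 1.35 CPM (2 UMIs) of free RNA barcodes of 10 to 100 UMIs in that library. Hspa1b had 3 UMIs in CD4-Cre and 62 in F/F there, too few for a call. Most inducible HSP70 UMIs of this class were thus in F/F (14 UMIs in CD4-Cre, 176 in F/F).

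Plasma-like cells, the antibody-secreting cells, were the largest class, with 48.8% of cells in CD4-Cre and 54.3% in F/F. They held 0.491 CPM of Hspa1a in CD4-Cre and 1.56 CPM in F/F (ratio 0.315, 0.228 to 0.430), against 2.56% of genes called lower. Hspa1b stood at 0.287 CPM in CD4-Cre and 0.922 CPM in F/F in them, a ratio of 0.311 (0.202 to 0.468). Cycling plasma-like cells held 0.582 CPM of Hspa1a in CD4-Cre and 2.86 CPM in F/F (ratio 0.204, 0.113 to 0.345; 2.39% of genes called lower). Free RNA barcodes of 10 to 100 UMIs held 1.35 CPM of Hspa1a in CD4-Cre (2 UMIs) and 3.68 CPM in F/F (5 UMIs). The part of free RNA in the plasma-like values was not tested.

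Summed over both genes, inducible HSP70 was lower in CD4-Cre in 11 of 11 classes, but several of these rested on few UMIs. CD4 T-like cells had 5 UMIs in CD4-Cre and 16 in F/F, CD8 T-like cells 4 UMIs in CD4-Cre and 3 in F/F, and cluster 8 no UMI in CD4-Cre and 2 in F/F. Cells with a UMI in cluster 8 numbered 0 of 303 in CD4-Cre, with an exact upper bound of 1.21%. Without the 5 cells of each library with most UMIs, taken apart for Hspa1a and Hspa1b, 7 of 11 were lower in CD4-Cre. No UMI was then left in cluster 8, CD8 T-like or ILC3-like cells. Cluster 6 kept 2 UMIs in CD4-Cre and 0 in F/F. In CD8 T-like cells and cluster 8 a difference in inducible HSP70 was not detectable at this depth.

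**Figure D2:**
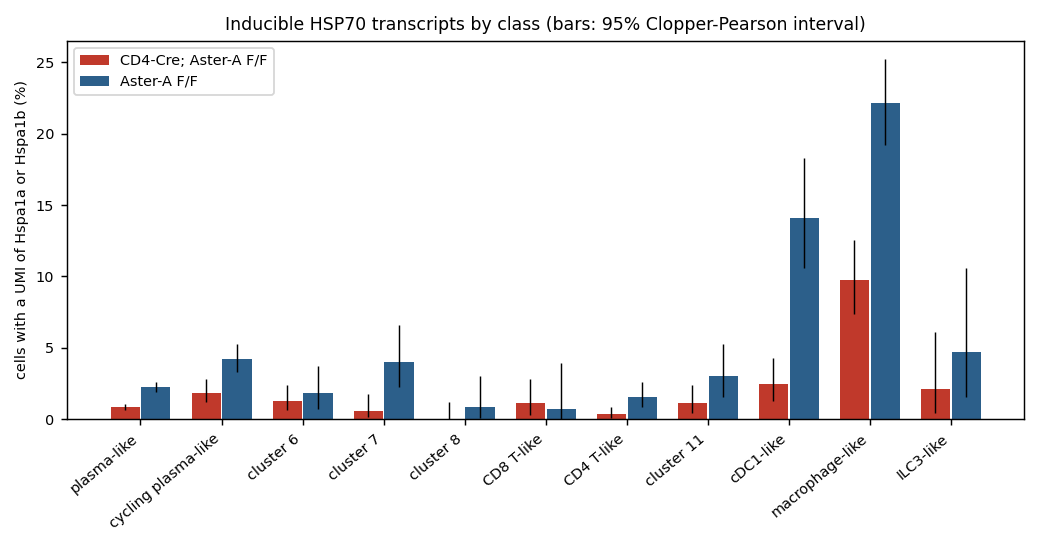
Share of cells (y axis, %) with at least 1 UMI of Hspa1a or Hspa1b in each class (x axis) and library; bars are shares and lines 95% Clopper-Pearson intervals. Macrophage-like cells reach 9.73% in CD4-Cre and 22.1% in F/F and cDC1-like cells 2.48% in CD4-Cre and 14.1% in F/F, while the other classes stay under 5%.

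By the share of cells that held either transcript, macrophage-like cells ranked first and cDC1-like cells next in both libraries. The remaining classes did not keep the order of CPM. In F/F, plasma-like cells had a larger share (2.22%) than cluster 6 (1.81%), but less Hspa1a (1.56 CPM against 10.4 CPM). A UMI of Hspa1a or Hspa1b was found in 53 of 545 macrophage-like cells (9.73%, 7.37 to 12.5) in CD4-Cre and 167 of 755 (22.1%, 19.2 to 25.3) in F/F. For cDC1-like cells the counts were 12 of 484 (2.48%, 1.29 to 4.29) in CD4-Cre and 48 of 340 (14.1%, 10.6 to 18.3) in F/F. For comparison, plasma-like cells held one in 0.819% of cells in CD4-Cre and 2.22% in F/F, at median depths of 16886 UMIs in CD4-Cre and 16562 in F/F, above the 6139 UMIs of macrophage-like cells in CD4-Cre and 6116 in F/F. With each cell thinned to 1500 UMIs, Hspa1a was found in 3.73% (2.26 to 5.77) of 509 macrophage-like cells in CD4-Cre and 8.29% (6.37 to 10.6) of 712 in F/F, leaving out 36 shallower CD4-Cre cells and 43 F/F cells.

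The signal was uneven among macrophage-like cells. Cells with 10 or more UMIs of either gene numbered 4 in CD4-Cre and 11 in F/F, with a highest value of 17 in CD4-Cre and 34 in F/F. They held 35.3% of the class's Hspa1 UMIs in CD4-Cre and 33.3% in F/F. The 5 cells with most Hspa1a held 43.2% of its UMIs in CD4-Cre and 17.6% in F/F, and without them the ratio of Hspa1a was 0.339 (0.256 to 0.444). Across single cells at equal depth, Hspa1a and Hspa1b moved together with a Spearman rho of 0.31 in 509 CD4-Cre cells and 0.31 in 712 F/F cells, given as a description of cells that share a library.

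Within the macrophage-like class, a finer clustering split off cells with different leading genes, and each part had less inducible HSP70 in CD4-Cre. The part led by Apoe and C1qa (429 cells in CD4-Cre, 650 in F/F) held 32.8 CPM of Hspa1a in CD4-Cre and 57.5 CPM in F/F (ratio 0.570, 0.450 to 0.717). In the part led by Ccl17 and Ccl22 (86 cells in CD4-Cre, 82 in F/F) Hspa1a stood at 9.62 CPM in CD4-Cre and 32.1 CPM in F/F (ratio 0.300, 0.133 to 0.615). The part led by Chil3 had only 28 CD4-Cre cells and 22 F/F cells, with 6 Hspa1a UMIs in CD4-Cre and 20 in F/F.

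Cell handling genes were read in the same cells. Fos, an immediate early gene that dissociation also induces, stood at 502 CPM in CD4-Cre and 454 CPM in F/F in macrophage-like cells, and the median log2 ratio of 18 immediate early genes there was -0.00, with 8 above 1 and 10 below. Its genes went both ways: Atf3 stood at 152 CPM in CD4-Cre and 210 CPM in F/F and Rhob at 76.1 CPM in CD4-Cre and 106 CPM in F/F, while Ier3 stood at 159 CPM in CD4-Cre and 97.8 CPM in F/F. In cDC1-like cells 15 of 17 immediate early genes with enough UMIs were below 1 and 2 above, with a median log2 ratio of -0.38, and Rhob stood at 23.5 CPM in CD4-Cre and 53.2 CPM in F/F, Jun at 74.5 CPM in CD4-Cre and 133 CPM in F/F. Plasma-like cells had 0 of 17 above 1 (median log2 ratio -0.21). The list's part in the HSP70 differences of these classes was not tested.

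Inside each library, macrophage-like cells with a UMI of Fos or Egr1 were compared with the remaining ones at 1500 UMIs a cell. In CD4-Cre, Hspa1a stood at 43.9 CPM in the 334 cells with either transcript and 26.7 CPM in the 175 without (ratio 1.65, 0.679 to 4.56). In F/F it stood at 101 CPM in 468 cells with and 38.3 CPM in 244 without (ratio 2.64, 1.48 to 5.08). The F/F interval lies above 1 and the CD4-Cre interval holds 1; whether the libraries differ in this was not tested. Hspa8 and Hsp90ab1, the constitutive members, had ratios of 1.04 and 1.05 in CD4-Cre and 1.11 and 0.980 in F/F in this comparison, each with an interval that holds 1. The comparison was not split by the finer parts of the class, which differ in Fos as well as in Hspa1a. Fos stood at 573 CPM in CD4-Cre and 489 CPM in F/F in the part led by Apoe and C1qa. In the part led by Ccl17 and Ccl22 it stood at 281 and 266 CPM. The role of these parts in the ratios was not tested.

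Hspa8 encodes the constitutive HSP70, which folds new proteins and strips clathrin from vesicles. It was highest in cDC1-like cells, at 2003 CPM in CD4-Cre and 2044 CPM in F/F, and lowest in plasma-like cells, at 306 CPM in CD4-Cre and 281 CPM in F/F, with no overlap between the libraries' values of these classes and their neighbours in the order. Macrophage-like cells stood at 1157 CPM (5061 UMIs) in CD4-Cre and 933 CPM (5788 UMIs) in F/F, a ratio of 1.24 (1.19 to 1.29), and the ratio stayed within 0.899 to 1.24 in all 11 classes. No Hspa8 value was called in any class. In plasma-like cells immunoglobulin transcripts filled 61.2% of UMIs in CD4-Cre and 59.6% in F/F, which lowers the CPM of every other gene there.

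For every 1000 Hspa8 UMIs the inducible genes are few, and this ratio does not depend on the scaling by class totals. Macrophage-like cells had 0.0336 (0.0287 to 0.0391) Hspa1a or Hspa1b UMIs per Hspa8 UMI in CD4-Cre and 0.0974 (0.0892 to 0.106) in F/F. In cDC1-like cells there were 0.000897 in CD4-Cre and 0.0146 in F/F. The libraries' intervals were apart in both classes. Of the last 500 bases of the longest Hspa8 transcript, 81.8% of 50-base stretches also occur in 11 other annotated genes, so its counts depend on how shared reads were assigned; for Hspa1a and Hspa1b the share was 0%.

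**Figure D3:**
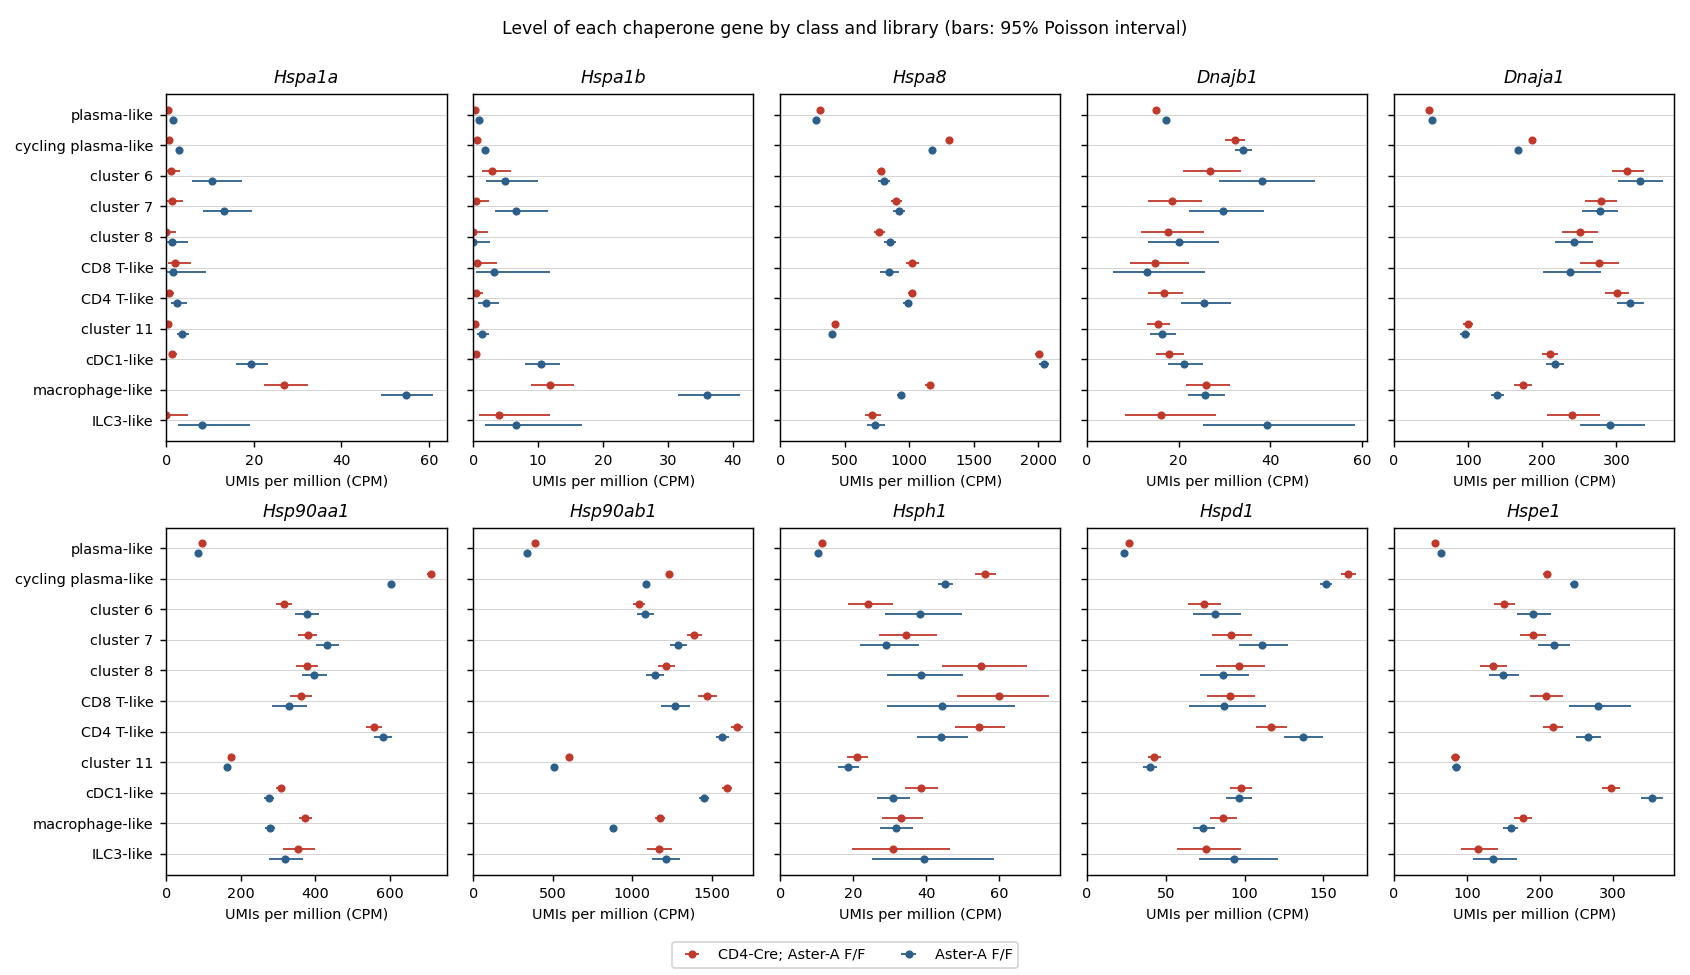
Level of each chaperone gene (x axis, CPM) by class (y axis) and library; points are summed CPM and bars 95% Poisson intervals. Hspa8 is highest in cDC1-like cells (2003 CPM in CD4-Cre, 2044 CPM in F/F), Hsp90aa1 in cycling plasma-like cells (711 CPM in CD4-Cre, 604 CPM in F/F), and Hspa1a and Hspa1b in macrophage-like cells.

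The HSP40 genes Dnajb1 and Dnaja1, which hand clients to HSP70, differed in level and in order. Dnajb1, which is also heat-inducible, was scarce, between 14.8 and 32.2 CPM in CD4-Cre and between 13.1 and 39.4 CPM in F/F over the classes, and most neighbours in the order overlapped. It was below F/F in 9 of 11 classes, with 4 intervals below 1 and none above. CD4 T-like cells had 16.8 CPM (79 UMIs) in CD4-Cre and 25.5 CPM (91 UMIs) in F/F, a ratio of 0.657 (0.480 to 0.898) that was called lower, against 1.25% of genes there.

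Dnaja1 was highest in cluster 6 and CD4 T-like cells, at 315 and 301 CPM in CD4-Cre and 331 and 319 CPM in F/F. Plasma-like cells had the lowest values, 47.8 CPM in CD4-Cre and 51.3 CPM in F/F, a ratio of 0.931 (0.897 to 0.966). Macrophage-like cells stood at 174 CPM in CD4-Cre and 139 CPM in F/F, a ratio of 1.25 (1.13 to 1.38). Its direction was split over the classes, 6 above 1 and 5 below.

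HSP90 is the chaperone of kinases and receptors, with an inducible form, Hsp90aa1, and a constitutive one, Hsp90ab1. Hsp90ab1 was higher in CD4-Cre in 9 of 11 classes and 8 of the 9 intervals lay above 1; the ratios ran from 0.964 in cluster 6 to 1.33 in macrophage-like cells, and none was called. The count was 7 of 11 after scaling by the median gene of each class or by edgeR's TMM factor, where CD4 T-like cells came to -0.00 on the log2 scale. After subtracting free RNA at the share of digestive transcripts it was 6, with cDC1-like cells at a log2 ratio of -0.11. Hsp90ab1 in macrophage-like cells stood at 1174 CPM in CD4-Cre and 883 CPM in F/F. In cDC1-like cells it stood at 1597 CPM in CD4-Cre and 1451 CPM in F/F. CD4 T-like cells ranked first among the 11 classes, at 1659 CPM in CD4-Cre and 1569 CPM in F/F, but overlapped cDC1-like cells.

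Hsp90aa1 was highest in cycling plasma-like cells, at 711 CPM (19526 UMIs) in CD4-Cre and 604 CPM (24730 UMIs) in F/F, next in CD4 T-like cells, at 558 CPM in CD4-Cre and 582 CPM in F/F, and lowest in plasma-like cells, at 95.9 CPM in CD4-Cre and 86.2 CPM in F/F. Cycling plasma-like cells thus had 7.41 times the plasma-like level in CD4-Cre and 7.01 times in F/F, against 3.16 times in CD4-Cre and 3.23 times in F/F for Hsp90ab1. With immunoglobulin, mitochondrial, ribosomal and digestive genes left out of the total, the Hsp90aa1 folds were 4.54 in CD4-Cre and 4.34 in F/F and the Hsp90ab1 folds 1.94 (CD4-Cre) and 2.00 (F/F). Cells of this cycling class had Mki67 UMIs in 81.0% in CD4-Cre and 83.9% in F/F.

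The balance of both HSP90 genes, which needs no scaling, set cycling plasma-like and cDC1-like cells apart from the other classes compared. There were 0.578 (0.568 to 0.588) Hsp90aa1 UMIs per Hsp90ab1 UMI in cycling plasma-like cells in CD4-Cre and 0.555 (0.547 to 0.564) in F/F. The same ratio was 0.246 in CD4-Cre and 0.255 in F/F in plasma-like cells, and 0.192 in CD4-Cre and 0.191 in F/F in cDC1-like cells. CD4 T-like cells had 0.337 (0.322 to 0.352) in CD4-Cre and 0.371 (0.352 to 0.390) in F/F. The gap between cycling plasma-like and cDC1-like cells was thus much larger than the library differences. Between other classes the gaps were smaller, and a library difference could be as large. Cluster 7 had 0.273 (0.253 to 0.295) in CD4-Cre and 0.335 (0.308 to 0.363) in F/F. Single cycling plasma-like cells that held more of one HSP90 transcript held more of the other, with a rho of 0.40 in 1172 CD4-Cre cells and 0.31 in 1615 F/F cells at equal depth. This was not particular to the HSP90 pair. Hsp90aa1 with Hspa8 had a rho of 0.30 in CD4-Cre and 0.31 in F/F in the same cells. The part of the immunoglobulin share of each cell was not tested.

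Hsp90aa1 in macrophage-like cells shows how few cells can carry a value. It stood at 373 CPM (1634 UMIs) in CD4-Cre and 278 CPM (1728 UMIs) in F/F, a ratio of 1.34 (1.25 to 1.44). The 5 cells with most of it held 27.5% of its UMIs in CD4-Cre and 7.35% in F/F, and without them the ratio was 1.05 (0.972 to 1.13). Hspd1 and Hspe1 behaved alike in this class, with 1.17 (1.02 to 1.34) and 1.11 (1.01 to 1.22) over all cells and 1.07 (0.919 to 1.24) and 1.05 (0.947 to 1.16) without 5 cells each. Over the set, 59 member by class intervals lay on one side of 1, and 46 of them stayed there without the 5 highest cells of each library. In plasma-like cells, the class with most UMIs, 5 intervals lay above 1 and 5 below, of 10 members. The share of all genes with such intervals was not computed.

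Hsph1, the HSP110 that frees HSP70 of its nucleotide, was higher in CD4-Cre in 9 of 11 classes, with 5 intervals above 1. Cycling plasma-like cells had 56.1 CPM (1542 UMIs) in CD4-Cre and 45.2 CPM (1850 UMIs) in F/F, a ratio of 1.24 (1.16 to 1.33). Cluster 6 went the other way, with 24.2 CPM (65 UMIs) in CD4-Cre and 38.2 CPM (55 UMIs) in F/F, a ratio of 0.632 (0.435 to 0.923) that was called lower, against 1.5% of genes of that cluster. In cluster 6 all 8 measured members lay below 1, 3 of them with intervals below 1.

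The mitochondrial chaperonin partners differed in how many classes lay below 1. Hspe1, the HSP10 lid, was lower in CD4-Cre in 10 of 11 classes, with 7 intervals below 1 (8 of 11 without the 5 highest cells of each library or with per-cell means, where cluster 11 and ILC3-like cells turned above 1), while Hspd1, the HSP60 barrel, was higher in 7 and lower in 4. Plasma-like cells had 56.3 CPM of Hspe1 in CD4-Cre and 65.0 CPM in F/F (ratio 0.866, 0.837 to 0.896), and 26.4 CPM of Hspd1 in CD4-Cre and 23.6 CPM in F/F (ratio 1.12, 1.06 to 1.18). In cDC1-like cells, where Hspe1 was highest, it stood at 298 CPM in CD4-Cre and 354 CPM in F/F (ratio 0.842, 0.794 to 0.894), and Hspd1 at 97.6 CPM in CD4-Cre and 96.1 CPM in F/F (ratio 1.02, 0.909 to 1.13).

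**Figure D4:**
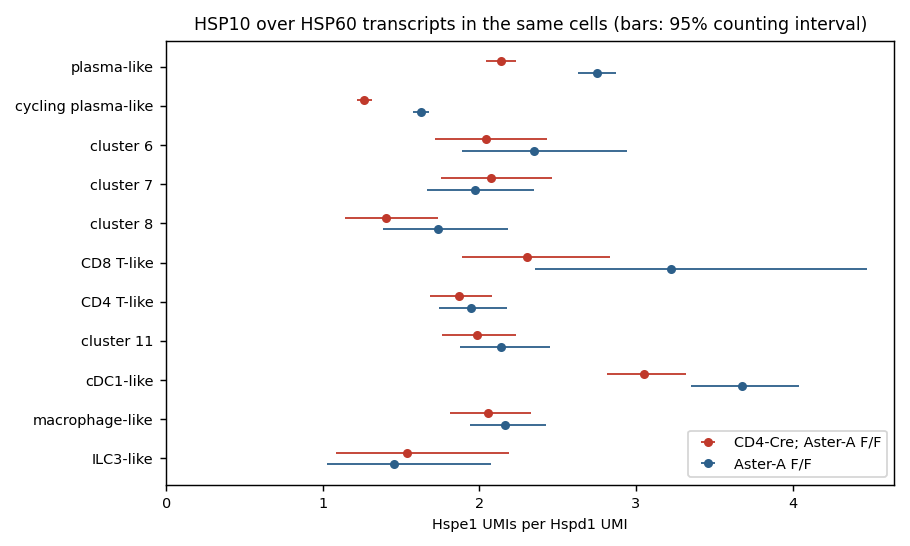
Hspe1 UMIs per Hspd1 UMI (x axis) by class (y axis) and library; points are ratios of summed UMIs and bars 95% counting intervals. The intervals of the libraries are apart in plasma-like, cycling plasma-like and cDC1-like cells, with CD4-Cre at 2.14, 1.27 and 3.05 and F/F at 2.75, 1.63 and 3.68.

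Per Hspd1 UMI there were 2.14 (2.04 to 2.23) Hspe1 UMIs in plasma-like cells in CD4-Cre and 2.75 (2.63 to 2.87) in F/F, a change of 0.777 (0.730 to 0.827). In cycling plasma-like cells the values were 1.27 (1.22 to 1.32) in CD4-Cre and 1.63 (1.58 to 1.68) in F/F, a change of 0.777 (0.739 to 0.817). For cDC1-like cells they were 3.05 in CD4-Cre and 3.68 in F/F, a change of 0.830 (0.733 to 0.939). CD4 T-like and macrophage-like cells changed by 0.962 (0.827 to 1.12) and 0.949 (0.804 to 1.12), intervals that hold 1. These shifts are under 1.5-fold and come from 1 pool each.

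Hspe1 is a short transcript, of 774 bases in its longest form, and 53.2% of the 50-base stretches in its last 500 bases also occur in other annotated genes, among them processed copies. Cytosolic ribosomal protein genes, which are short and abundant as well, were on balance lower in CD4-Cre in all 11 classes, with median log2 ratios from -0.27 in cluster 8 to -0.04 in macrophage-like cells, the 1 class in which Hspe1 was higher. The part of transcript length, or of read assignment, in the Hspe1 shift was not tested.

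**Figure D5:**
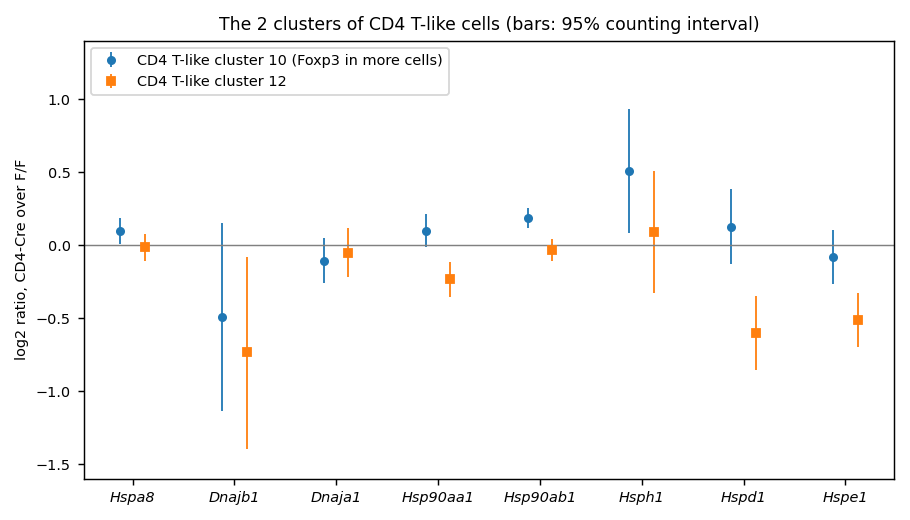
Log2 ratio of CD4-Cre over F/F (y axis) of the 8 chaperone genes with enough UMIs (x axis) in the 2 clusters of CD4 T-like cells; points are ratios of summed CPM and bars 95% counting intervals. In cluster 12 Hspd1 reaches a ratio of 0.660 and Hspe1 0.702, while in cluster 10, which holds the regulatory markers, they stand at 1.09 and 0.945.

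CD4 T-like cells, which are αβ T cells, formed 2 clusters. Cluster 10 (601 cells in CD4-Cre, 451 in F/F) had 3 regulatory T cell markers among its leading genes. None of its members was called, against 1.62% of genes called lower. Its 8 measured members were split 5 above 1 and 3 below, with Hsp90ab1 at 1746 CPM in CD4-Cre and 1538 CPM in F/F (ratio 1.14, 1.08 to 1.19) and Hsph1 at 54.7 CPM in CD4-Cre and 38.6 CPM in F/F (ratio 1.42, 1.06 to 1.91). Cluster 12 (603 cells in CD4-Cre, 394 in F/F) led with Cd4, Themis and Trac. In it 7 of 8 members lay below 1.

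The mitochondrial pair was the furthest below 1 in cluster 12 among members with at least 100 UMIs. Hspd1 stood at 109 CPM (256 UMIs) in CD4-Cre and 165 CPM (263 UMIs) in F/F, a ratio of 0.660 (0.553 to 0.787) that was called lower, against 1.11% of genes of that cluster. Without the 5 highest cells of each library, which held 30.5% of its UMIs in CD4-Cre and 32.7% in F/F, the ratio was 0.682 (0.551 to 0.844). Hspe1 stood at 212 CPM in CD4-Cre and 303 CPM in F/F, a ratio of 0.702 (0.618 to 0.797), and Hsp90aa1 at 524 CPM in CD4-Cre and 617 CPM in F/F, a ratio of 0.850 (0.781 to 0.925). In cluster 10 Hspd1 stood at 124 CPM in CD4-Cre and 114 CPM in F/F (ratio 1.09, 0.913 to 1.30). The difference between the clusters was not tested, and the clusters were not tied to the deletion.

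CD8 T-like cells, also αβ T cells, had 363 cells in CD4-Cre and 139 in F/F. Over all genes with at least 100 UMIs their median log2 ratio was 0.11, so ratios there are read against it. The median member, over those with at least 20 UMIs, stood at 0.20. Hspe1 was at 208 CPM in CD4-Cre and 280 CPM in F/F, a ratio of 0.745 (0.617 to 0.902), and Hspa8 at 1021 CPM in CD4-Cre and 841 CPM in F/F, a ratio of 1.21 (1.10 to 1.34). Without the 5 highest cells of each library Hspe1 was at 0.888 (0.721 to 1.10).

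The median over members with at least 20 UMIs was set beside that over all genes with at least 100 UMIs, an unlike depth. The median member stood at a log2 ratio of -0.19 in cluster 7 (all genes 0.08). In cluster 6 it stood at -0.20 (0.03) and in ILC3-like cells at -0.26 (-0.04). Of the measured members, 7 of 9 had 100 UMIs in cluster 7, 8 of 8 in cluster 6 and 6 of 8 in ILC3-like cells. The classes are therefore not ranked by this gap. The median member stood at 0.14 in cycling plasma-like cells (all genes -0.01). It was at a log2 ratio of 0.01 in plasma-like cells (all genes -0.03), -0.07 in CD4 T-like cells (0.08), -0.04 in cDC1-like cells (0.00) and 0.19 in macrophage-like cells (0.00). Other lists of chaperones gave the wider picture in the same cells. In plasma-like cells 13 of 14 endoplasmic reticulum chaperones were above 1, with a median log2 ratio of 0.18; Hsp90b1, the HSP90 of that compartment, stood at 3335 CPM in CD4-Cre and 2775 CPM in F/F, Pdia3 at 242 CPM in CD4-Cre and 200 CPM in F/F, and Dnajb9 at 113 CPM in CD4-Cre and 121 CPM in F/F. None of the 14 was called. The mitochondrial chaperone and protease list there was split 5 above 1 and 3 below.

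In macrophage-like cells all 8 genes of TRiC, the cytosolic chaperonin that folds actin and tubulin, were above 1, with a median log2 ratio of 0.30 and Cct2 at 142 CPM in CD4-Cre and 103 CPM in F/F. Of 22 other cytosolic heat shock and HSF1-response genes, 17 were above 1 and 5 below, with Ahsa1, an HSP90 activator, at 56.2 CPM in CD4-Cre and 40.6 CPM in F/F and Hspa4l, a relative of HSP110, at 17.4 CPM in CD4-Cre and 12.2 CPM in F/F. Over all cells, inducible HSP70 was thus lower in CD4-Cre in macrophage-like cells in which most other chaperones measured lay above 1. Without the 5 highest cells of each library, Hsph1 was at 0.895 (0.701 to 1.14) and Dnajb1 at 0.919 (0.702 to 1.20), while the other members outside inducible HSP70 stayed above 1. The lists were not read without those cells.

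In cDC1-like cells the 23 other heat shock and HSF1-response genes were split 12 above and 11 below, with Hsf2 at 9.50 CPM in CD4-Cre and 6.26 CPM in F/F, a ratio of 1.52 (1.01 to 2.32), and Dnajb4 at 7.19 CPM in CD4-Cre and 10.2 CPM in F/F. In CD4 T-like cells 14 were above 1 and 8 below, none called, with Hsf1, the heat shock factor gene, at 27.0 CPM in CD4-Cre and 20.8 CPM in F/F (ratio 1.30, 0.968 to 1.76).

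Genes with a pattern like that of a member over the 22 class by library profiles were sought among 8317 genes, as a description with no p. Among genes outside the set, the profile most like that of Hspa1a was Neat1 (Pearson r 0.82), then Negr1, Lpar1, Mcl1 and C6 at 0.77 to 0.78. For Hsp90aa1 these were Pcna (0.97), Nucks1, Ncl, Lsm3 and Ptma, for Hsp90ab1 Rbbp7 (0.97), Cfl1, Sf3a1, Vps29 and Eif4h, and for Hspd1 Set (0.97), Tmpo, Ube2l3, Srsf3 and Acp1. Some members were closer still: Hsp90aa1 and Hspd1 had an r of 0.97 with each other. Among members, Hspa1a was closest to Hspa1b (0.87) and then Dnajb1 (0.51), and its r with Hsph1 was -0.01. The profiles share libraries, depth and the immunoglobulin share of each class.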

How the data were processed

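Single-cell 3′ counts of 2 pools of small intestinal immune cells were used, 1 pool of 3 mice per genotype. The deposited values are raw UMI counts per gene and barcode, made by the authors with Cell Ranger 7.2.0 on mm10 (GRCm38), per the submitters' processing notes, which also name Seurat 5.0.1. A barcode was kept as a cell when it had 1000 or more UMIs from 500 or more genes, with mitochondrial UMIs not above 10%. No doublet caller was applied, so doublets stayed in. Cells of both libraries were clustered together in scanpy 1.11.5 (30 principal components of 2000 variable genes, 15 neighbours, Leiden clustering at resolution 1 with seed 1; Python 3.11.15, numpy 2.4.6, scipy 1.17.1), with the chaperone, immediate early and digestive genes left out of the clustering. A class was compared with at least 100 cells in each library.

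UMIs were summed per class and library. Ratios are CD4-Cre over F/F with exact 95% intervals for counting error. A gene was called with at least 100 UMIs over both libraries and a ratio of at least 1.5 or at most 1/1.5. Medians over members used those with at least 20 UMIs, and medians over all genes used those with at least 100. Each genotype was 1 pool, so no test was made. All members were reported, and from each other list the 2 highest and 2 lowest ratios were eligible for naming. Not every eligible gene is reported here. Members and lists were chosen with earlier results of these data known. The ratio code was tested on simulated data. Alternatives were other scalings (among them TMM from edgeR 4.0.16 in R 4.3.3), filters, resolutions, removal of the 5 highest cells, and free RNA subtraction; subtraction at the immunoglobulin share and removal of the 47 shared barcodes were chosen after seeing the data.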

Additional observations from a re-analysis of the deposited data

Results flagged for a closer look

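Intervals on opposite sides of 1 in different classes drew attention to 6 members. None of these differences between classes was tested, and the values named are the highest and the lowest of each gene. Hspa8 had a ratio of CD4-Cre over F/F of 1.24 in macrophage-like cells and 0.899 in cluster 8. Dnaja1 had 1.25 in macrophage-like and 0.931 in plasma-like cells, before free RNA subtraction at the share of digestive transcripts, which turns the plasma-like direction. Hsp90aa1 had 1.34 in macrophage-like cells and 0.834 in cluster 6. Hsph1 had 1.42 in cluster 8 and 0.632 in cluster 6. Hspd1 had 1.17 in macrophage-like and 0.852 in CD4 T-like cells, and Hspe1 had 1.11 in macrophage-like and 0.745 in CD8 T-like cells. When the 5 cells with most UMIs of the gene were left out of both libraries, the macrophage-like intervals of Hsp90aa1, Hspd1 and Hspe1, the cluster 8 intervals of Hspa8 and Hsph1 and the CD8 T-like interval of Hspe1 held 1.

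Barcodes that the comparisons left out, those with over 10% mitochondrial UMIs (907 in CD4-Cre, 1096 in F/F), were also read, pooled without classes. Relative to their non-mitochondrial UMIs, the ratio of CD4-Cre over F/F was 1.46 (1.27 to 1.68) for Hsp90aa1 and 1.39 (1.26 to 1.53) for Hsp90ab1. It was 1.64 (1.22 to 2.2) for Hspd1, from 111 UMIs in CD4-Cre and 81 in F/F. For Hspe1 it was 1.57 (1.19 to 2.08), from 124 UMIs in CD4-Cre and 94 in F/F. The share over all genes was not computed. Hspa1a stood at 7.60 CPM in CD4-Cre and 21.2 CPM in F/F in these barcodes, lower in CD4-Cre as in the kept macrophage-like cells. In all kept cells pooled the same way, Hsp90aa1 stood at 283 CPM in CD4-Cre and 242 CPM in F/F. Hsp90ab1 stood there at 778 CPM in CD4-Cre and 629 CPM in F/F, and Hspd1 at 72.1 and 62.0 CPM. Hspe1 was lower in CD4-Cre there, at 120 CPM against 129 CPM in F/F. The part of class make-up, which differs between the libraries, was not tested.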

How the results depend on the processing

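No paired analysis was possible because each genotype was 1 pool, and for the same reason no replicate could be left out. Of the alternative values of the main results, 138 moved by less than their counting interval or 1.5 times and 25 by more; for single genes these numbers were 458 and 53. No called value changed sign. The summed Hspa1a and Hspa1b log2 ratio in macrophage-like cells was -1.23, and became -1.70 without the 5 highest cells of each library and -1.74 after free RNA subtraction. Classes with it lower in CD4-Cre numbered 7 of 11 without those cells, with no UMI left in cluster 8, CD8 T-like or ILC3-like cells. The median member in CD4 T-like cells was at -0.18 with the left-out genes allowed in the clustering. Free RNA subtraction moved the median member to 0.16 in plasma-like and -0.18 in cDC1-like cells. It moved the log2 change of Hspe1 over Hspd1 in plasma-like cells to -0.83. Values past 1.5-fold in either direction came to 26, with no such count over all genes. At the immunoglobulin share, subtraction moved the macrophage-like median to 0.46. The free RNA share reached its 50% limit in some classes, so these subtractions are rough.

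Scaled to genes other than immunoglobulin, mitochondrial, ribosomal and digestive ones, or as the mean of per-cell CPM, the fold of cycling plasma-like over plasma-like cells was 4.54 or 5.96 in CD4-Cre and 4.34 or 5.85 in F/F for Hsp90aa1, and 1.94 or 2.68 in CD4-Cre and 2.00 or 2.91 in F/F for Hsp90ab1. The fold of Hspa8 in cDC1-like over CD4 T-like cells was 2.12 or 2.43 in CD4-Cre and 2.16 or 2.63 in F/F. The share of macrophage-like cells with Hspa1a was 3.73% in CD4-Cre and 8.29% in F/F after thinning to 1500 UMIs. Without the 5 highest cells, Hspa1a and Hspa1b per Hspa8 there was 0.0211 in CD4-Cre and 0.0808 in F/F. The cause of these shifts was not tested.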

Other observations

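B-like cells numbered 171 in CD4-Cre and 80 in F/F, and the F/F number was under the 100 needed for a comparison. Hsp90ab1 stood at 3596 CPM in CD4-Cre and 1751 CPM in F/F in them, above its levels in the 11 compared classes. Hspe1 UMIs per Hspd1 UMI stood at 1.16 in CD4-Cre and 2.55 in F/F. Mki67, a proliferation marker, was seen in 53.2% of these cells in CD4-Cre and 31.3% in F/F. In cluster 20, led by digestive enzyme genes, with 45 cells in CD4-Cre and 354 in F/F, 1 CD4-Cre cell held 80 of the 91 Hspa1a and Hspa1b UMIs of its library. Among ILC2-like cells of F/F, 2 of 38 cells held 31 of 32 such UMIs.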
